A study of Mus musculus with 6 samples.

Results

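Interferon-stimulated genes are the genes that cells switch on when interferon, a secreted alarm protein, binds its receptors. The set described here is 41 genes, chosen by symbol from a fixed list, and all 41 were found among the 18988 rows of the deposited expression table. RNA was sequenced from the corpus, the part of the stomach with acid-secreting parietal cells, in 6 C57BL/6 mice. The 3 controls carried Ras;APC FF (replicates 1 to 3), and the other 3 mice carried PGC;Ras;APC FF (replicates 4 to 6), so that both groups share the Ras and APC FF alleles and differ by the PGC component. Each library came from 1 mouse, and the labels do not say what PGC or FF stands for, in which cells the alleles act, or the age, sex, induction or time of sampling. The series' title names gastric cancer induced in the corpus by successive oncogenic activation, and the comparison asks which genes differ when PGC is added to Ras;APC FF.

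As background, type I interferons signal through Ifnar1 and Ifnar2, type III through Ifnlr1 and Il10rb, and interferon gamma through Ifngr1 and Ifngr2. The kinases bound to these receptors phosphorylate STAT proteins. These enter the nucleus and bind either the interferon-stimulated response element (ISRE), in a complex with Irf9, or the gamma-activated sequence (GAS), as pairs. Their targets include sensors of foreign nucleic acid, proteins that block viral RNA or its translation, ubiquitin-like modifiers, and GTPases that attack membranes around intracellular microbes. In mucosal epithelium, a low level of these genes is commonly kept on without infection.

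Many promoters of the set hold strings that match these elements, and those of 5 genes are shown because the expression results below turn on them or because they show each element. Sequences are the 200 bases before the RefSeq start (build GRCm38.p6), 5′ to 3′ on the gene's strand. Capitals mark matches to the ISRE core (GAAA, any 2 bases, GAAA), to its reverse complement (TTTC, any 2 bases, TTTC), or to the GAS core TTCNNNGAA, which is its own reverse complement. Gbp3 (chr3:142559844-142560043, plus strand) and Ifit3 (chr19:34583329-34583528, plus strand) hold 2 ISRE matches each. Isg15 (chr4:156200819-156201018, minus strand) holds 3 overlapping ones. Igtp (chr11:58199356-58199555, plus strand) has a GAS match followed by an ISRE match, and Irf1 (chr11:53769814-53770013, plus strand) has a GAS match alone.
Gbp3: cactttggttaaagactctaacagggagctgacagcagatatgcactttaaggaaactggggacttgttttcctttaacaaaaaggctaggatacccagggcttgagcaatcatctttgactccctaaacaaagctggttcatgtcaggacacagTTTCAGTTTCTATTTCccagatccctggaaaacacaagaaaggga
Ifit3: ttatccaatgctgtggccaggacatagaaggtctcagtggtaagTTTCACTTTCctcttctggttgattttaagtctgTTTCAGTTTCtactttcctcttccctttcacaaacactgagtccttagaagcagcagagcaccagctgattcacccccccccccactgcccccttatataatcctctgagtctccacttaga
Isg15: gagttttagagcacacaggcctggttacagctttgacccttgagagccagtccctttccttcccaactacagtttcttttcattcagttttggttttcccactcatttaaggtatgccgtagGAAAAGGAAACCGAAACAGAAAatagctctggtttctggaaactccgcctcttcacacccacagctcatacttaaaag
Igtp: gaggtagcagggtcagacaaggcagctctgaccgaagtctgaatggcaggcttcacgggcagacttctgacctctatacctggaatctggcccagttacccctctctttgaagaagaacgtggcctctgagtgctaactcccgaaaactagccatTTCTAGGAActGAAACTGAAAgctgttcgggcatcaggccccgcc
Irf1: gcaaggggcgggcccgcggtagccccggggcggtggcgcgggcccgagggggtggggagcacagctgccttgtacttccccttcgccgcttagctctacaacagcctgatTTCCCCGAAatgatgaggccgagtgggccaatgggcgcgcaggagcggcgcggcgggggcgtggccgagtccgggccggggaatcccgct

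A promoter window of 300 bases (250 before to 50 after the start) was found in the RefSeq table for 30 of the 41 genes. An ISRE match on either strand was present in 17 of these 30 genes, and in 18 of their 35 windows (51.4%), against 3.44% of all 32851 windows of that length. A GAS match was present in 8 of the 30 genes, and in 22.9% of their windows against 8.30% of all windows. All 5 GTPase genes with a window (Gbp2, Gbp3, Gbp7, Igtp and Irgm1) held an ISRE match, as did Ifih1 and Ddx58, the 2 sensors with a window. In 10 genes, among them Irf7, Cmpk2, Ifi44, Oasl1 and Lgals3bp, neither string was in the window. The 2 strings overlapped in 1 gene, Bst2. A match is a string of letters and not a measured binding site.

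The values are FPKM (fragments scaled by gene length and library total), tested as log2(FPKM + 1) with limma, a linear model that shares its estimate of spread across genes. All log2 changes use this scale, which compresses differences between low values. Between 11465 and 12407 genes reached 1 FPKM per library. Gastric markers fit the labelled tissue, with the proton pump gene Atp4b at 4068 to 4614 FPKM in controls. Replicate 6 was unlike the other 5: its correlation with each control, taken over genes (which are not independent replicates), was 0.904 to 0.909, against 0.965 to 0.981 for replicates 4 and 5. Its Atp4b was 723.3 FPKM, and its median FPKM over the tested genes was the highest, against 6.54 to 7.94 in the others. Control replicate 3 read as male (Eif2s3y at 13.15 FPKM, Xist at 0) and the other libraries as female. How far the make-up of replicate 6, or sex, bears on the interferon genes was not tested. In bulk tissue, fewer cells of a type and less RNA per cell cannot be told apart.

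Log2 changes of the interferon-stimulated genes between genotypes had both signs, and the share of negative ones depended on scaling. Of the 41 genes, 40 passed the filter of at least 1 FPKM in at least 3 libraries. Mx2, annotated as a polymorphic pseudogene and at 0.25 to 0.57 FPKM, did not. By limma with Benjamini-Hochberg adjustment over all genes, 0 of the 40 were past the threshold of 0.05. Before adjustment, 0 had p under 0.05 (7 after median-of-ratios scaling, against 2919 of all 11857 genes, still with 0 of the 40 past the threshold). Of all 11857 tested genes, 18 (0.152%) were past it, 13 higher (0.11%) and 5 lower (0.0422%; 9 and 10 after median-of-ratios scaling), and 35.4% had an unadjusted p under 0.05. The lowest adjusted p in the set was 0.162. Log2 changes ran from -0.61 (Ifit3) to 0.75 (Irf1), 23 positive and 17 negative, with a median of 0.05 against 0.26 for all tested genes. Over all tested genes 80.6% of changes were positive. Median-of-ratios scaling moved the median of all tested genes to -0.0027 and that of the set to -0.20, with 30 of 40 changes negative.

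The PGC;Ras;APC FF mice differed among themselves. Replicates 4 and 5 both lay below all 3 controls in 17 of 40 genes, against 6.83% of all tested genes, and in 24 of 40 against 19.4% after median-of-ratios scaling. Replicate 6 lay above all 3 controls in 33 of 40 genes, against 73.6% of all tested genes, and in 16 of 40 against 38.9% after that scaling. The high values of replicate 6 were thus about as common in the set as among all genes on either scale. Replicates 4 and 5 both lay above all controls in 1 gene of the set, Lgals3bp, against 44.2% of all genes. After scaling they did so in 0 genes of the set, against 2418 of all 11857 tested genes. The mean of the set on the log2 scale, set to 0 at the control mean, was 0.13, -0.17 and 0.05 in controls 1 to 3, -0.21 and -0.39 in replicates 4 and 5, and 0.65 in replicate 6. All tested genes stood at 0.20, 0.16 and 0.47 in replicates 4 to 6 on the same measure. The median of the set after scaling was -0.42 in replicates 4 and 5 and 0.12 in replicate 6.

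In 11 genes (Ifih1, Oasl2, Rtp4, Ifi44, Xaf1, Irf7, Trim30a, Gbp2, Gbp3, Gbp7 and Iigp1) replicates 4 and 5 were below every control and replicate 6 above every control, as in 0.649% of all genes. After scaling 7 genes had this order (0.978% of all genes), of which Oasl2, Gbp2 and Iigp1 had it on both scales. Scaled values of replicate 6 were at the control mean or below for others of the 11, such as Ifi44 (-0.0060 on the log2 scale) and Ifih1 (-0.35). These counts describe the libraries and are not tests, and the positions against the controls given below are those before scaling.

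**Figure D1:**
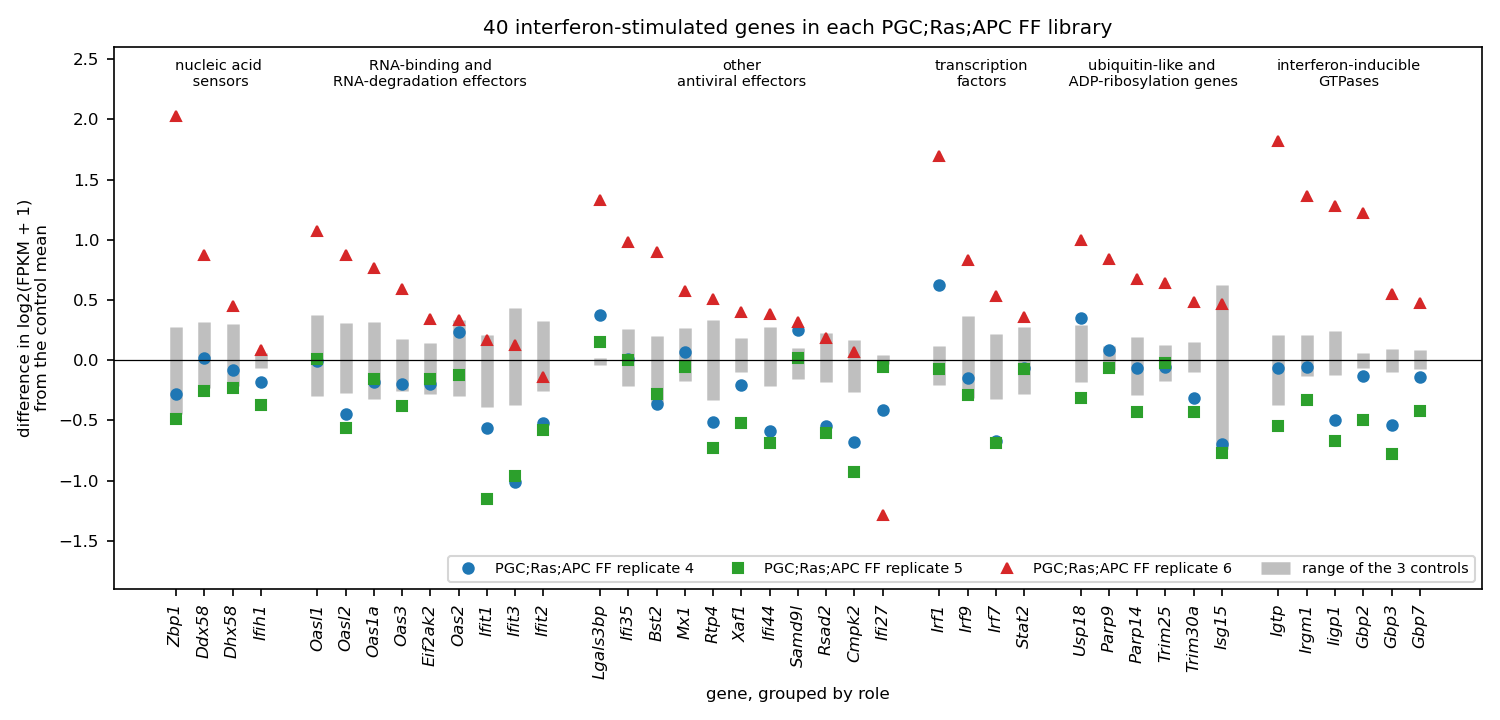
Difference in log2(FPKM + 1) from the control mean (vertical axis) for the 40 tested genes, grouped by role; symbols are the 3 PGC;Ras;APC FF libraries and grey bars span the 3 controls. Replicate 6 (triangles) lies above the grey bar in 33 genes, and replicates 4 and 5 both lie under it in 17.

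**Figure D2:**
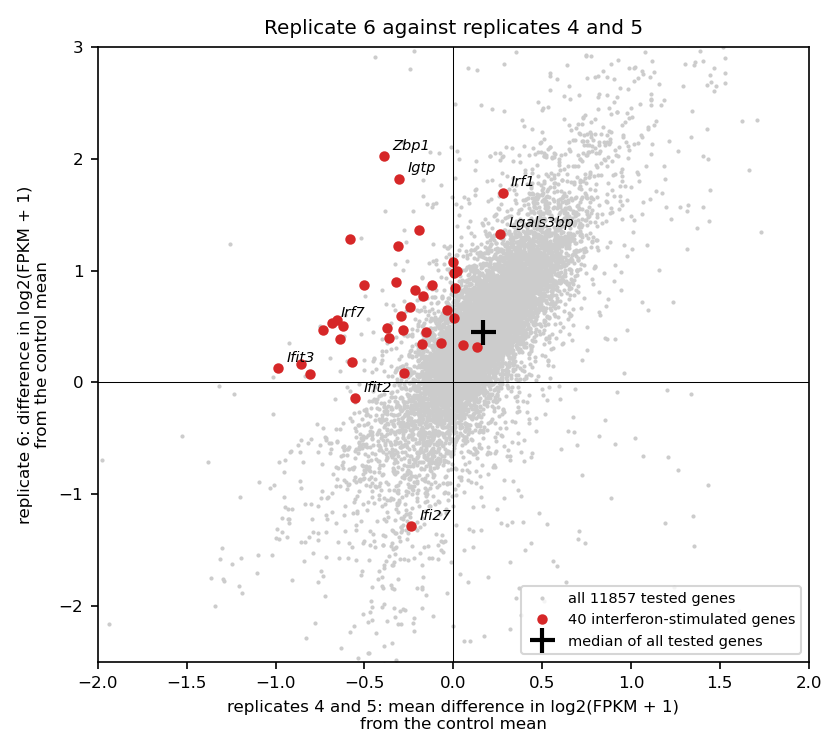
Difference from the control mean in replicate 6 (vertical) against the mean difference in replicates 4 and 5 (horizontal), both in log2(FPKM + 1). Grey points are all tested genes (122 lie outside the axes), the cross is their median at 0.17 and 0.45, and the red points of the interferon-stimulated genes have medians of -0.28 and 0.57.

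All 4 nucleic acid sensors were highest in replicate 6, as were 68.4% of all tested genes. After median-of-ratios scaling 2 of the 4 were, against 3848 of all 11857 tested genes. Zbp1, a sensor of left-handed nucleic acids that can start necroptosis (chromosome 2, 173206612 to 173218923, minus strand), was at 4.89, 2.84 and 5.33 FPKM in the 3 controls and 3.30, 2.72 and 20.27 FPKM in replicates 4 to 6. Only replicate 6 left the control range upwards, at 6.73-fold the mean of replicates 4 and 5, the largest such ratio in the set. The log2 change of Zbp1 was 0.42 ± 0.61 (SE, limma adjusted p = 0.621), and without replicate 6 it was -0.39. Ddx58, which encodes the RNA sensor RIG-I (chromosome 4, 40203773 to 40239828, minus strand), was at 4.88, 3.45 and 3.04 FPKM in the 3 controls and 3.78, 2.96 and 7.64 FPKM in replicates 4 to 6. Its groups overlapped (log2 change 0.21 ± 0.29, limma adjusted p = 0.602), and the sign turned after median-of-ratios scaling (-0.047). Ifih1, encoding the double-stranded RNA sensor MDA5, and Dhx58, a helicase that tunes both sensors, had log2 changes of -0.16 and 0.05.

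Of the 9 effectors that bind or degrade RNA, Ifit1, Ifit2, Ifit3 and Oasl2 had replicates 4 and 5 below every control. Ifit proteins bind the ends of foreign RNA and hinder its translation, and their genes neighbour each other on chromosome 19 (Ifit2 from 34550694, Ifit1 up to 34650009). Ifit3 was at 13.97, 7.53 and 9.59 FPKM in the 3 controls and 4.49, 4.69 and 11.08 FPKM in replicates 4 to 6. Replicates 4 and 5 were thus below every control and at 0.443-fold the control mean, while replicate 6 lay inside the control range. Ifit1 was at 6.30, 3.94 and 6.48 FPKM in the 3 controls and 3.38, 1.90 and 6.24 FPKM in replicates 4 to 6, again with replicates 4 and 5 below every control. Ifit2, with 1.33 to 2.48 FPKM in controls and 0.93, 0.86 and 1.52 in replicates 4 to 6, followed it. The log2 changes of Ifit3, Ifit1 and Ifit2 were -0.61 ± 0.34, -0.52 ± 0.33 and -0.41 ± 0.19 (SE), with limma adjusted p of 0.213, 0.268 and 0.162. Reads of Ifit3 may be shared with its close copy Ifit3b, which was at 2.85 to 4.03 FPKM in the controls and 1.63, 1.22 and 4.85 in replicates 4 to 6.

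The Oas genes, of which Oas1a, Oas2 and Oas3 encode enzymes that make the RNase L activator oligoadenylate, lay on chromosome 5 and had log2 changes of -0.04 to 0.36. Oasl1, a relative that holds back translation of Irf7 (114923240 to 114937915, plus strand), was the most abundant, at 32.27, 37.60 and 51.77 FPKM in the 3 controls and 39.54, 40.05 and 84.89 FPKM in replicates 4 to 6. Replicates 4 and 5 were within the control range and replicate 6 above it (log2 change 0.36 ± 0.32, limma adjusted p = 0.407). Eif2ak2, the double-stranded RNA-activated kinase PKR, ranged over 3.63 to 5.19 FPKM in controls and 3.88 to 6.12 in PGC;Ras;APC FF, a log2 change of -0.0039.

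Among the other antiviral effectors, 2 genes kept all PGC;Ras;APC FF libraries on 1 side of the controls, in opposite directions. Lgals3bp, a secreted galectin-binding glycoprotein and the most abundant gene of the set (chromosome 11, 118392751 to 118402092, minus strand), was at 124.15, 119.75 and 124.49 FPKM in the 3 controls and 159.67, 136.42 and 310.42 FPKM in replicates 4 to 6. Every PGC;Ras;APC FF library was higher, with a log2 change of 0.62 ± 0.29 (SE, limma adjusted p = 0.163). Ifi27 (chromosome 12, 103434211 to 103440239, plus strand) was at 88.21, 88.99 and 93.03 FPKM in the 3 controls and 67.22, 86.70 and 36.27 FPKM in replicates 4 to 6. It was lowest in replicate 6, the reverse of most of the set (log2 change -0.59 ± 0.29, limma adjusted p = 0.178). Over all tested genes, 42.7% had every PGC;Ras;APC FF library above every control and 5.47% had every one below.

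Cmpk2, a mitochondrial nucleotide kinase, and Rsad2, which encodes the antiviral enzyme viperin, are neighbours on chromosome 12. Cmpk2 was at 3.31, 2.36 and 3.55 FPKM in the 3 controls and 1.52, 1.12 and 3.24 FPKM in replicates 4 to 6. Rsad2 was at 2.17, 1.89 and 2.84 FPKM in the 3 controls and 1.25, 1.16 and 2.72 FPKM in replicates 4 to 6. Both were below every control in replicates 4 and 5 and inside the control range in replicate 6, as the Ifit genes Ifit1, Ifit2 and Ifit3 were. Rtp4, Ifi44 and Xaf1, the last an antagonist of the apoptosis inhibitor XIAP, were likewise low in replicates 4 and 5 but above the controls in replicate 6. Bst2, the virion-tethering membrane protein, had 21.04 to 31.62 FPKM in controls, 22.42 in replicate 5 and 51.95 in replicate 6, with replicate 4 just under the lowest control. Mx1 (0.72 to 1.33 FPKM in controls, 0.86 to 1.89 in PGC;Ras;APC FF), Ifi35 and Samd9l had log2 changes of 0.19, 0.33 and 0.20.

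Of the 4 transcription factors, Irf1 had the highest log2 change and Irf7 the lowest, and neither passed. Irf1, an early target of interferon gamma (chromosome 11, 53770014 to 53778374, plus strand), was at 10.58, 8.22 and 10.29 FPKM in the 3 controls and 15.40, 9.14 and 33.52 FPKM in replicates 4 to 6. Replicates 4 and 6 exceeded the controls and replicate 5 did not (log2 change 0.75 ± 0.39, limma adjusted p = 0.198). Irf7, which amplifies type I interferon production (chromosome 7, 141262706 to 141266481, minus strand), was at 27.41, 20.05 and 29.67 FPKM in the 3 controls and 15.55, 15.35 and 37.11 FPKM in replicates 4 to 6. Replicates 4 and 5 were below and replicate 6 above every control (log2 change -0.28 ± 0.33, limma adjusted p = 0.543). Irf9 and Stat2, which are part of the complex at the ISRE, had log2 changes of 0.13 and 0.07. Exons of Irf7, Irf9 and Irf1 overlap those of other protein-coding genes (Phrf1, Rnf31 and Gm17334), and the use of strand in counting is not given in the sources used here.

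Isg15, the ubiquitin-like protein that gives the group its name (chromosome 4, 156199424 to 156200818, minus strand), was at 13.30, 6.93 and 19.46 FPKM in the 3 controls and 7.19, 6.77 and 17.33 FPKM in replicates 4 to 6. The controls alone spanned more than the PGC;Ras;APC FF libraries did, and the groups overlapped. Its log2 change was -0.33 with a 95% limma interval of -1.31 to 0.65 (adjusted p = 0.567), so that these libraries bound the change only loosely. Usp18, the protease that removes Isg15 and damps receptor signalling, was at 6.46, 4.36 and 4.65 FPKM in the 3 controls and 6.78, 3.90 and 11.13 FPKM in replicates 4 to 6 (log2 change 0.34 ± 0.31). Trim25, a ubiquitin ligase of the RIG-I pathway, was the most abundant of this role, at 15.50 to 19.22 FPKM in the controls and 16.89, 17.30 and 27.99 in replicates 4 to 6. Its change of 0.19 ± 0.21 turned to -0.11 after median-of-ratios scaling. Trim30a, Parp9 and Parp14, the last 2 ADP-ribosyltransferase family members, had log2 changes of -0.09, 0.29 and 0.06. Exons of Parp9 overlap those of the protein-coding gene Dtx3l on the opposite strand.

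Interferon-inducible GTPases differed widely among the PGC;Ras;APC FF libraries. In all 6 genes replicate 5 was the lowest of the 6 libraries, before and after median-of-ratios scaling. Over all tested genes it was lowest in 7.74%, and in 1191 of 11857 after scaling. Replicate 6 was the highest in all 6 GTPase genes, and in 4 after scaling. Over all tested genes it was highest in 68.4%, and in 3848 of 11857 after scaling. Igtp, an immunity-related GTPase (chromosome 11, 58199556 to 58207591, plus strand), was at 7.98, 5.00 and 7.68 FPKM in the 3 controls and 6.42, 4.32 and 26.47 FPKM in replicates 4 to 6. Irgm1, a regulator of the same family (chromosome 11, 48861968 to 48871683, minus strand), was at 7.39, 5.89 and 5.65 FPKM in the 3 controls and 5.99, 4.78 and 17.66 FPKM in replicates 4 to 6. For both, replicate 4 lay inside the control range, replicate 5 below it and replicate 6 above it. Their log2 changes were 0.40 ± 0.55 and 0.32 ± 0.40 (SE, limma adjusted p = 0.591 and 0.554), and without replicate 6 they were -0.31 and -0.19. Exons of Igtp overlap those of Irgm2 on the same strand, which was at 5.10 to 7.48 FPKM in controls and 6.54, 4.43 and 20.46 in replicates 4 to 6.

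Gbp3, a guanylate-binding protein gene (chromosome 3, 142560026 to 142573209, plus strand), was at 4.26, 3.60 and 3.96 FPKM in the 3 controls and 2.40, 1.88 and 6.24 FPKM in replicates 4 to 6. Its controls were close together, so that all 3 PGC;Ras;APC FF libraries lay outside them, 2 below and 1 above. Iigp1, on chromosome 18, reached 8.09 FPKM in replicate 6 and was at 1.65 and 1.34 in replicates 4 and 5, against 2.43 to 3.42 in controls. Gbp2 (5.97 to 6.61 FPKM in controls) was at 5.66, 4.17 and 15.97, and Gbp7 (1.57 to 1.86) at 1.45, 1.02 and 2.75. The median ratio of replicate 6 to the mean of replicates 4 and 5 was 3.26 for the 6 GTPases, 2.24 for the whole set and 1.25 for all tested genes.

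**Figure D3:**
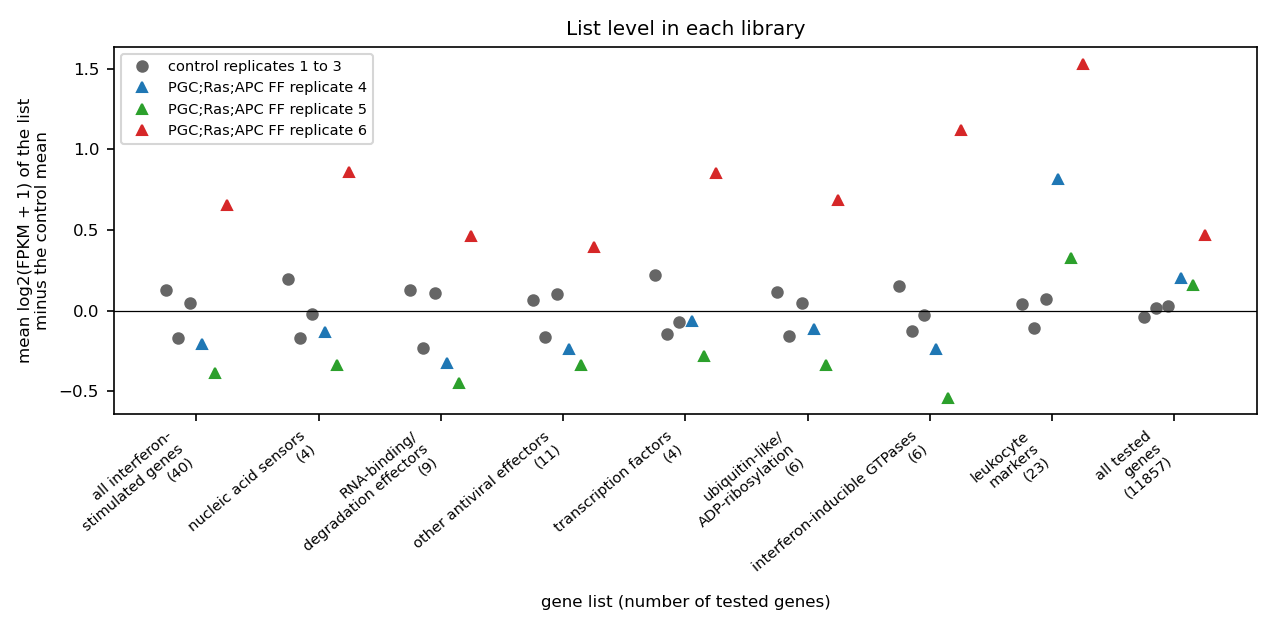
Mean log2(FPKM + 1) of each gene list minus its control mean, with 1 point per library (circles, controls; triangles, PGC;Ras;APC FF). Before any scaling, in every role group replicate 6 is the highest library and replicate 5 the lowest, while leukocyte markers are above the controls in replicates 4, 5 and 6.

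Leaving out replicate 6 changed which genes passed. Then 4 of the 40 genes were lower and 0 higher by limma with adjustment over all genes: Gbp3 (log2 change -0.66, adjusted p = 0.0313), Cmpk2 (-0.81, 0.0352), Ifit3 (-0.98, 0.0401) and Irf7 (-0.68, 0.0472). Of all tested genes 0.961% were lower and 8.11% higher in that comparison. The median change of the set was -0.28, with 31 of 40 negative. For all tested genes the median was 0.17, with 2635 of 11857 negative. With replicate 6 left out and median-of-ratios scaling (a setting chosen after seeing the data), Gbp3 was the 1 gene past the threshold (adjusted p = 0.0403), with 0.531% of all genes lower. Leaving out any other library left 0 of the 40 past it. Members named here for this fit, and the values of Gbp3, Cmpk2 and Rsad2, were chosen after their values were seen.

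Levels are given by promoter match as a description, with no test. The 17 genes with an ISRE match had a median of -0.31 in replicates 4 and 5 on the log2 scale against the control mean. In replicate 6 their median was 0.48. The 13 genes with a window but no ISRE match, of which 10 held neither string, had medians of -0.22 and 0.64. The 8 genes with a GAS match had medians of -0.23 and 0.83, and the 22 without one -0.34 and 0.51. Replicates 4 and 5 were below all controls in 2 of those 8 and in 12 of those 22. Of the 4 genes lower without replicate 6, Gbp3 and Ifit3 carry the matches shown above, while the windows of Irf7 and Cmpk2 hold neither string.

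Further genes of the pathway were described in the same way. Of 124 further pathway symbols looked for, some of them alternative names of the same gene, 85 were tested and 0 passed (limma, adjusted over all genes). Of the 85, 19 had an unadjusted limma p under 0.05, against 35.4% of all genes. Log2 changes were positive in 68 of the 85 (80%), as in 80.6% of all tested genes. All 6 receptor genes had a positive change, with a median of 0.46 against 0.26 for all genes, and of 0.18 after median-of-ratios scaling, where Ifnlr1 was at -0.014. Ifngr2, the signalling chain of the interferon gamma receptor, was at 38.15, 38.85 and 43.20 FPKM in the 3 controls and 48.96, 54.52 and 70.69 FPKM in replicates 4 to 6, with no overlap. Ifnar2, of the type I receptor, was at 10.84, 9.27 and 10.12 FPKM in the 3 controls and 14.05, 11.90 and 25.14 FPKM in replicates 4 to 6, again with no overlap. Their log2 changes were 0.51 and 0.64 (limma adjusted p = 0.0959 and 0.123). Every PGC;Ras;APC FF library was above every control in 4 of the 6 receptor genes, and in 1 after median-of-ratios scaling. Over all tested genes this held in 42.7%, and in 2137 of 11857 after that scaling. Ifnlr1, the type III receptor chain, was at 2.64 to 3.36 FPKM in controls and 2.95 to 5.03 in PGC;Ras;APC FF.

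All 18 JAK-STAT and IRF genes had a positive change (median 0.39, and 0.10 after median-of-ratios scaling), and 0 passed. Irf3, the factor activated by the sensors, was at 15.05, 14.16 and 15.87 FPKM in the 3 controls and 20.92, 21.88 and 27.13 FPKM in replicates 4 to 6 (log2 change 0.59 ± 0.14, limma adjusted p = 0.0850). Every PGC;Ras;APC FF library of Irf3 exceeded every control. After median-of-ratios scaling the median over the 85 genes went from 0.23 to -0.030. The genes with every PGC;Ras;APC FF library above every control went from 26 of 85 to 7. Over all 11857 tested genes that count went from 5066 (42.7%) to 2137. Of the 21 interferon ligand genes looked for, 3 were among the rows used here and 0 were tested. Ifng, the gamma interferon gene, was at 0, 0.04 and 0.07 FPKM in the 3 controls and 0, 0 and 0.22 FPKM in replicates 4 to 6.

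Tmem173, which encodes the DNA-sensing adaptor STING, was at 2.14, 1.26 and 1.31 FPKM in the 3 controls and 7.38, 3.38 and 23.61 FPKM in replicates 4 to 6 (log2 change 1.93 ± 0.55, limma adjusted p = 0.0883). For Ddx58 and Ifih1 replicate 5 was below the controls, whereas for Tmem173 every PGC;Ras;APC FF library was above every control. That order held in 42.7% of all tested genes. Ikbke, a kinase of the same arm, was at 1.68, 1.38 and 2.02 FPKM in the 3 controls and 2.96, 2.75 and 7.48 FPKM in replicates 4 to 6, also without overlap. Mavs, the adaptor of RIG-I and MDA5, was at 19.06 to 21.76 FPKM in controls and 18.84 to 21.78 in PGC;Ras;APC FF, a log2 change of -0.0033.

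A second list of interferon-induced genes, 51 of them tested, had a median of 0.14 and 0 past the threshold. Ifitm1, of the membrane proteins that block viral entry, had the largest change of the pathway genes, at 9.36, 6.09 and 5.53 FPKM in the 3 controls and 51.89, 21.65 and 225.37 in replicates 4 to 6 (log2 change 3.05 ± 0.72, limma adjusted p = 0.0850). Ly6e, a surface protein that also restricts viral entry, was at 399.16, 345.96 and 277.40 FPKM in the 3 controls and 655.19, 528.23 and 1155.96 FPKM in replicates 4 to 6. For both genes every PGC;Ras;APC FF library was above every control, as in 42.7% of all tested genes. Replicate 6 was the highest library for both, as in 68.4% of all tested genes. Without replicate 6, 5 pathway genes were higher (Irf3, Socs3, Tmem173, Ifitm1 and Ly6e) and 2 lower (Ifit3b and Ifi27l2a) by limma with adjustment over all genes, against 8.11% and 0.961% of all genes. With median-of-ratios scaling besides, 0 were higher (0.616% of all genes) and 1 lower, Ifit3b (0.531%). Socs3, Ifit3b and Ifi27l2a are named, as is Ifnlr1, after their values were seen.

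**Figure D4:**
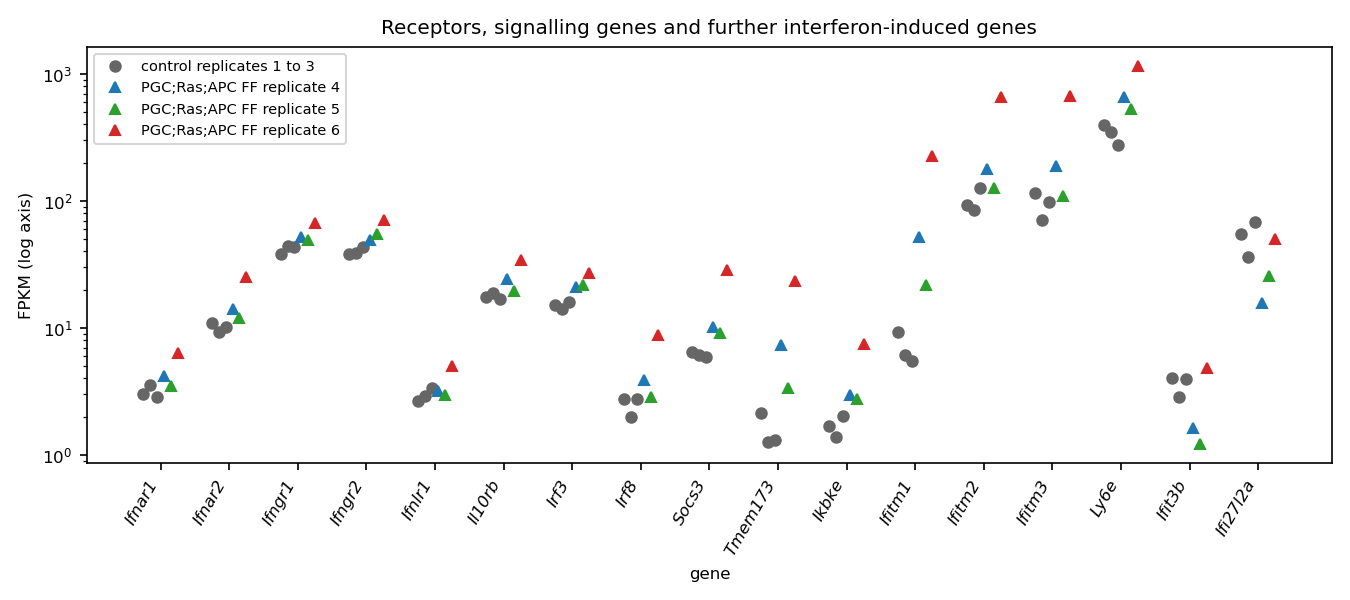
FPKM on a log axis of 17 pathway genes outside the set, with 1 point per library (circles, controls; triangles, PGC;Ras;APC FF); the genes were picked after their values were seen. Irf3, Tmem173, Ikbke, Ifitm1 and Ly6e have all PGC;Ras;APC FF libraries above the controls, as do 42.7% of all tested genes. Ifit3b and Ifi27l2a are lowest in replicates 4 and 5.

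Leukocyte markers had positive log2 changes, and 0 of the 23 tested were past the threshold. Their median was 0.89 (0.60 after median-of-ratios scaling), 16 of 23 had an unadjusted limma p under 0.05 (35.4% of all genes), and 16 had every PGC;Ras;APC FF library above every control (42.7% of all genes). That last count was 12 of 23 after median-of-ratios scaling, against 2137 of all 11857 tested genes. Cd3g, in both counts of 16, was under 1 FPKM in all 3 controls (0.54 to 0.92). It passed the filter through the PGC;Ras;APC FF libraries alone, which fixed its order in advance. The filter left 0 of the 7 natural killer and 0 of the 5 neutrophil genes in these counts. Without replicate 6, 6 of 23 markers were higher, against 8.11% of all genes, and with that scaling besides, 0. Without replicate 5, 11 of 23 were higher, against 4.55% of all genes. Summed over the 46 markers in the table, FPKM was 221.1 to 304.1 in controls and 514.2, 336.4 and 986.7 in replicates 4 to 6. Cd52, a leukocyte surface protein, was at 18.63, 12.84 and 16.70 FPKM in the 3 controls and 35.55, 27.00 and 89.50 FPKM in replicates 4 to 6 (chosen after its values were seen). Replicate 5 did not exceed the controls in every list: its macrophage and monocyte markers summed to 174.7 FPKM, inside the control range of 123.5 to 209.3. Defining markers of plasmacytoid dendritic cells (Siglech, at 0.02 to 0.07 FPKM) and natural killer cells (Ncr1, at 0.02 to 0.14 FPKM) were near 0 in all 6 libraries. Other genes on those lists were mixed in replicate 6. On the first list Il3ra reached 6.64 and Tcf4 18.22 FPKM, while Klk1, at 12.82 FPKM, was inside the control range of 12.81 to 19.68. On the second Gzma reached 11.19 and Nkg7 3.07 FPKM, while Klrb1c was at 0.01 and Prf1 at 0.08. Neutrophil genes stood out in replicate 6, with S100a8 at 15.46 FPKM against 0 to 1.05 in the other 5. The part of these cells in the levels of the set was not tested.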

How the data were processed

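RNA from the stomach corpus of 6 mice (3 control, 3 PGC;Ras;APC FF) was sequenced. The authors deposited FPKM values rounded to 2 decimals, and per the submitters' processing notes used STAR and featureCounts on mm10. The sources used here give no versions, annotation, strand setting or step to FPKM. The number of reads is unknown: steps in the low values of a few short RNAs were too few to recover reads, so no counting interval is given.

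FPKM are not counts, so limma 3.58.1 (R 4.3.3) was used on log2(FPKM + 1), with genotype as the 1 term, a variance trend and two-sided tests over 11857 genes with at least 1 FPKM in at least 3 of the 6 libraries. The Benjamini-Hochberg adjustment took in all of these genes (threshold 0.05). With 3 mice a group, the smallest two-sided p of an exact permutation test is 0.1. The fit was tested on simulated data. Gene coordinates come from GENCODE M21 (GRCm38, the assembly of mm10) and promoters from RefSeq (GRCm38.p6). Motifs were searched as exact matches.

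The genes of the set and all lists were chosen with earlier results of these data known. Values in every library are given by rule for genes past the threshold and, per role, the 2 with the largest change and the most abundant. For each list of further pathway genes, the 2 with the lowest adjusted p and the most abundant were picked; some results are not reported here. Alternatives were another pseudocount (0.1), 2 other filters, 2 scalings, another variance model and leaving out each library.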

Additional observations from a re-analysis of the deposited data

How the results depend on the processing

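Under the 6 alternatives in pseudocount, filter, scaling and variance model, 0 of the interferon-stimulated genes, pathway genes and leukocyte markers were past the limma threshold. Over all genes the 18 calls became 34 with a pseudocount of 0.1 and 9 with no filter. Leaving out 1 library at a time gave 0 to 1076 calls over all genes, 0 to 4 among the interferon-stimulated genes (4 without replicate 6, 0 otherwise), 0 to 7 among pathway genes and 0 to 11 among leukocyte markers. Without replicate 5, 4 of 85 pathway genes and 11 of 23 leukocyte markers were higher, against 4.55% of all genes. After median-of-ratios scaling, a count added after seeing the data, replicate 6 was above all controls in 16 interferon-stimulated genes (33 unscaled), and 7 (11 unscaled) also had replicates 4 and 5 below all controls. The median change of the set ranged from -0.28 to 0.24 when single libraries were left out. Leaving out replicate 6 with median-of-ratios scaling or with quantile normalization (both chosen after seeing the data) gave 136 and 248 calls over all genes. For the interferon-stimulated genes it gave 1 and 2 calls, for pathway genes 1 and 2, and the set's median was -0.42 and -0.45.

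Signs turned for genes whose change was small or rested on replicate 6. After median-of-ratios scaling and quantile normalization Ddx58 was at -0.047 and -0.055, and Trim25 at -0.11 and -0.12. With single libraries left out, Zbp1 ranged from -0.39 to 0.87, Ddx58 from -0.12 to 0.44, Trim25 from -0.037 to 0.31, Igtp from -0.31 to 0.88 and Irgm1 from -0.19 to 0.65, each lowest without replicate 6. With replicate 6 left out and median-of-ratios or quantile scaling, the values were -0.55 and -0.54 for Zbp1, -0.28 and -0.27 for Ddx58, -0.19 and -0.23 for Oasl1, and -0.15 and -0.14 for Usp18. They were -0.22 and -0.24 for Trim25, -0.48 and -0.47 for Igtp, and -0.37 and -0.36 for Irgm1. The cause was not tested. No paired analysis was possible because the replicate numbers of the groups (1 to 3 and 4 to 6) are not shared.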

Other observations

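The interferon-stimulated genes also varied among the controls. Control replicate 2 was the lowest control in 28 of the 40 tested genes, against 2795 of all 11857. Control replicate 1 was the highest control in 21 of 40, among them all 6 GTPases, against 2111 of all 11857. Control replicate 3 was the highest control in 17 of 40, against 5117 of all 11857. The median SD on the log2 scale was 0.25 among controls and 0.59 among PGC;Ras;APC FF for the set, against 0.13 and 0.22 for all tested genes. Replicate 5 was the lowest of the 6 libraries in 24 of 40 genes (60%), against 7.74% of all genes.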
